A study of Mus musculus with 8 samples.

Results

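Icam1, Icam2 and Vcam1 are the immunoglobulin-type adhesion molecules with which vessel walls hold leukocytes. They were picked by name, and all 3 had a complete line among the 17326 genes whose line in the deposited table held all 8 counts. The data came from 8 libraries of polyadenylated RNA from mouse kidney cells separated by fluorescence-activated sorting, 2 libraries in each of 4 groups. The groups were endothelium from EMCN+/+ (wild-type) mice, endothelium from EMCN-/- (knockout) mice, podocytes from EMCN+/+ mice and podocytes from EMCN-/- mice. The series' design text places the endothelium in the glomerulus, the filtering unit of the kidney, and the podocytes are the epithelial cells that wrap its capillaries. Strain, age, treatment and the antibodies used for sorting were not given in the sources used here, and the replicates carry the numbers 2 and 3 of the sample titles. Nothing in the labels says whether the libraries of a group came from separate animals, so the p-values measure only the spread between these libraries, which may be technical.

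Leukocytes leave the blood in steps: selectins on the vessel wall let them roll, chemokines activate their integrins, and the integrins then bind ICAM and VCAM molecules until the cell stops and crawls through the wall. ICAM-1 and ICAM-2 bind the β2 integrins LFA-1 and, for ICAM-1, Mac-1, whereas VCAM-1 binds the α4β1 integrin VLA-4. ICAM-2 is a constitutive endothelial protein, whereas ICAM-1 and VCAM-1 are induced by cytokines through NF-κB. Endomucin, the product of the deleted gene Emcn, is a sialomucin of the endothelial glycocalyx that is known to oppose leukocyte adhesion. The question these values address is whether the transcripts of the adhesion ligands stand at another level where endomucin is missing.

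The 3 genes lie on different chromosomes of GRCm38, the assembly also called mm10, which is the build named in the submitters' processing notes. In the GENCODE M21 annotation, Icam1 (Entrez 15894) spans positions 21015985 to 21028817 of chromosome 9 on the plus strand, and its longest coding transcript has 7 exons and 2535 nucleotides. Icam2 (Entrez 15896) spans 106377656 to 106388075 of chromosome 11 on the minus strand, with 4 exons and 1282 nucleotides. Vcam1 (Entrez 22329) spans 116109949 to 116129688 of chromosome 3 on the minus strand, with 9 exons and 3469 nucleotides. Icam1 and Vcam1 each overlap 1 annotated antisense gene, Gm47079 and Gm43109, and because the use of strand in counting was not given, how reads in those overlaps were assigned is uncertain. Icam2 overlaps none.

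The sequence just upstream of Icam1 is shown because Icam1 was read at a high level in both sorted populations and is the textbook case of a cytokine-induced adhesion gene. The RefSeq table used here (GRCm38.p6) held the Icam1 promoter, with a start upstream of the GENCODE start of 21015985 given above. The 250 bases before its annotated start at 21015940, plus strand, are chr9:21015690-21015939, printed 5′ to 3′ with 2 motif matches in capitals.

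Icam1 promoter: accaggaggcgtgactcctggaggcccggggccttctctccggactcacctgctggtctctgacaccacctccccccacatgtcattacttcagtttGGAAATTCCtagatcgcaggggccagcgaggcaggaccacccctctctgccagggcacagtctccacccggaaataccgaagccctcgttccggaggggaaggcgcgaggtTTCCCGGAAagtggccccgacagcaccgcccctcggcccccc

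The first match, GGAAATTCC, is of the type that NF-κB binds and begins 153 bases before the RefSeq start of 21015940. The second, TTCCCGGAA, is of the type that STAT factors bind and begins 42 bases before it. Both motifs were searched on both strands, and the 2 matches do not overlap. Among the 32851 promoters of the table, cut to the same length, 94 (0.286%) held the first motif and 88 (0.268%) the second. A match says only that these letters are there.

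Members by cell type. Icam2 was much higher in endothelium, whereas for Icam1 and Vcam1 the difference between the cell types was smaller and did not pass. Levels are CPM, read counts divided by the library's size, after scaling by TMM, edgeR's trimmed mean of log ratios between libraries. Icam2 stood at 419 and 424 CPM in wild-type endothelium (replicates 2 and 3) and at 485 and 455 CPM in knockout endothelium. In podocyte libraries it stood at 27.5 and 19.0 CPM in wild type and at 23.0 and 20.7 CPM in knockout. Every endothelial library lay above every podocyte library, and such a lack of overlap was found for 21.2% of all genes in wild type and 27.3% in knockout. Icam2 was 18.1-fold higher in wild-type endothelium than in wild-type podocytes, a log2 fold change of 4.18 (SE 0.27, edgeR adjusted p 3.09e-05). In knockout it was 21.5-fold higher in endothelium, a log2 fold change of 4.43 (SE 0.27, edgeR adjusted p 2.47e-05).

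Icam1 stood at 286 and 372 CPM in wild-type endothelium and at 312 and 191 CPM in knockout endothelium. In podocyte libraries it stood at 211 and 172 CPM in wild type and at 217 and 165 CPM in knockout. Both wild-type endothelial libraries lay above both wild-type podocyte libraries, as 21.2% of all genes did, whereas in knockout the lower endothelial library fell between the podocyte ones. The wild-type cell types differed by a log2 fold change of 0.78 (SE 0.29, 95% interval 0.14 to 1.43), which did not pass (edgeR adjusted p 0.152, unadjusted p 0.0215). A fit of only those 4 libraries gave 0.89 and did pass (edgeR adjusted p 0.0393), and over the 8 alternatives that kept all libraries compared the adjusted p ran from 0.0393 to 0.198. In knockout the difference was 0.40 (SE 0.29, 95% interval −0.24 to 1.04, edgeR adjusted p 0.462).

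Vcam1 stood at 140 and 125 CPM in wild-type endothelium and at 171 and 76.7 CPM in knockout endothelium. In podocyte libraries it stood at 132 and 59.1 CPM in wild type and at 141 and 68.3 CPM in knockout. The cell types overlapped in wild type and in knockout. The difference between endothelium and podocytes was 0.47 on the log2 scale in wild type (SE 0.47, 95% interval −0.56 to 1.51, edgeR adjusted p 0.682) and 0.24 in knockout (SE 0.46, 95% interval −0.79 to 1.27, edgeR adjusted p 0.812). The wild-type value was 0.0079 without replicate 3 of the wild-type podocytes and 1.18 without replicate 2 of that group. The intervals are wide and also hold differences above 2-fold, so they do not show that the cell types are alike.

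**Figure D1:**
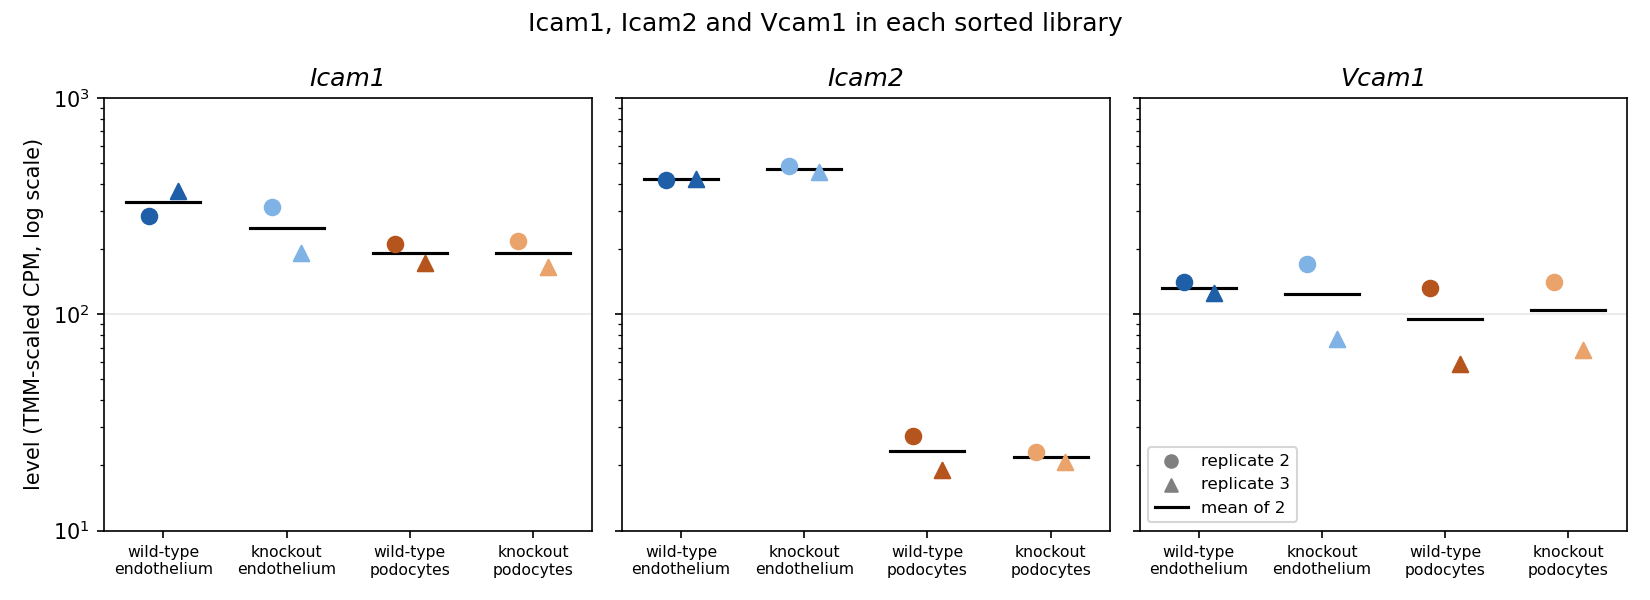
Level of each gene in the 8 libraries, in TMM-scaled CPM on a log axis, by group. Circles are replicate 2, triangles replicate 3 and bars the mean of the 2. Icam2 sits between 419 and 485 CPM in endothelium and between 19.0 and 27.5 CPM in podocytes, and for Vcam1 and knockout Icam1 the cell types overlap.

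Of the 3 members, 1 passed between the cell types in wild type and 1 in knockout, Icam2 each time. Over all 16477 genes tested, 8.99% passed in wild type (1481 genes, 4.26% of all genes higher in endothelium and 4.73% lower) and 10.4% in knockout (1709 genes, 4.28% higher). The call for Icam2 was kept when any 1 library was left out, with edgeR adjusted p-values of at most 0.00133 in wild type and 0.00037 in knockout. The count over all genes was less stable: it was 922 in wild type without replicate 3 of wild-type endothelium and 769 without replicate 2 of wild-type podocytes. In knockout it was 960 and 1115 without replicate 2 or 3 of the endothelium, and 1080 without replicate 2 of the podocytes. In bulk RNA, fewer cells of a type and less RNA per cell cannot be told apart.

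Levels per length. Dividing by the length of the longest coding transcript puts the members on 1 scale, CPM per kilobase. In wild-type endothelium the order was Icam2 at 329 ± 2.58 (SD, n = 2), Icam1 at 130 ± 24.1 (SD, n = 2) and Vcam1 at 38.2 ± 3.14 (SD, n = 2) CPM per kilobase, and neighbours in this order did not overlap. Among 13280 genes with a coding transcript these levels ranked 154, 485 and 1875 from the top. Knockout endothelium kept that order, at 367 ± 16.8, 99.3 ± 33.8 and 35.8 ± 19.3 CPM per kilobase (SD, n = 2 each).

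In podocyte libraries the order changed, with Icam1 first. Wild-type podocytes held Icam1 at 75.4 ± 10.8, Vcam1 at 27.5 ± 14.8 and Icam2 at 18.1 ± 4.66 CPM per kilobase (SD, n = 2 each). Icam1 did not overlap the others, whereas Vcam1 and Icam2 did overlap, with Vcam1 at 38.0 and 17.1 and Icam2 at 21.4 and 14.8 CPM per kilobase. Knockout podocytes held Icam1 at 75.4 ± 14.6, Vcam1 at 30.2 ± 14.9 and Icam2 at 17.0 ± 1.25 CPM per kilobase (SD, n = 2 each). There neighbours did not overlap at these lengths. All annotated exons of a gene joined span 4.36 kilobases for Icam1, 1.904 for Icam2 and 8.87 for Vcam1. The order of Vcam1 and Icam2 in podocytes, and whether they overlap, therefore depends on the length chosen.

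The ratios between members, taken within each library and per length, are given as a description. The Icam1 to Icam2 ratio lay between 0.213 and 0.444 in the 4 endothelial libraries and between 3.88 and 4.78 in the 4 podocyte libraries, wild type and knockout together. The 2 ranges did not overlap. The Icam2 to Vcam1 ratio did not overlap either, at 7.66 to 16.0 against 0.440 to 0.870. Both ratios contain Icam2 and so restate its difference between the cell types. The Icam1 to Vcam1 ratio overlapped, at 2.49 to 4.08 in endothelium against 2.10 to 3.97 in podocytes. It was higher in replicate 3 in all 4 groups. At the same genotype and replicate number it was higher in endothelium, at 2.79 against 2.19 and 4.08 against 3.97 in wild type, and 2.49 against 2.10 and 3.41 against 3.31 in knockout. The labels do not say that these numbers pair libraries. Across numbers the order turned, with 2.79 in endothelium below 3.97 in podocytes in wild type, and 2.49 below 3.31 in knockout. Icam1 thus stood above Vcam1 per length in each of the 8 libraries.

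Transcripts of endothelial markers were also read in the podocyte libraries, and the members were set beside them. Among 13 endothelial markers, the mean level in wild-type podocyte libraries had a median of 6.19% of that in wild-type endothelium, from 2.96% for Egfl7 to 294% for Cldn5, a claudin that podocytes also make. In knockout the median was 5.24%. Icam2 lay within the range of these markers, at 5.51% in wild type and 4.65% in knockout, beside 4.27% and 4.33% for Pecam1. Icam1 was at 58.1% and 75.9% and Vcam1 at 72.0% and 84.5%, above each of the 13 markers except Cldn5. Which cells the Icam1 and Vcam1 reads of the podocyte libraries came from was not tested.

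**Figure D2:**
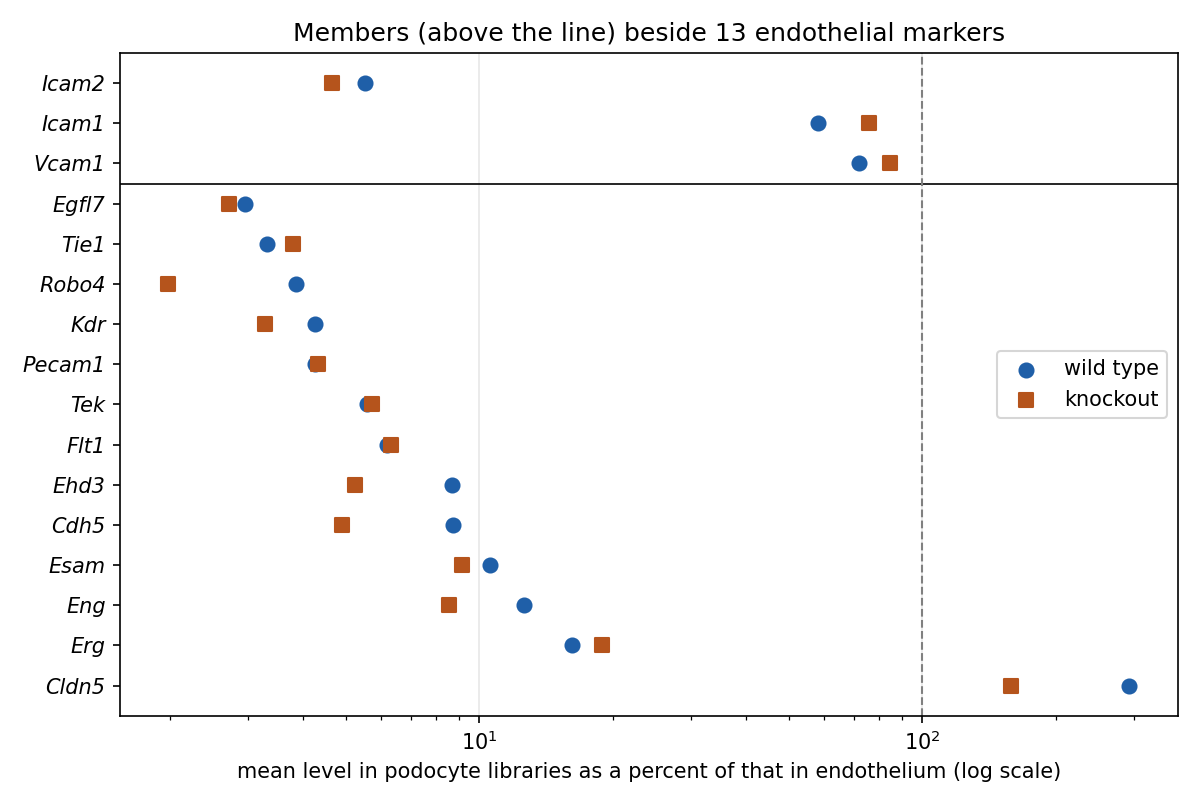
Mean level in podocyte libraries as a percent of the mean in endothelium of the same genotype, on a log axis, for the 3 members above the line and 13 endothelial markers below it. Circles are wild type, squares knockout, and the dashed line marks equal levels. Icam2 sits among the markers, at 5.51% and 4.65%, whereas Icam1 and Vcam1 sit between 58.1% and 84.5%.

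Members by genotype. None of the 3 genes passed between knockout and wild type in either cell type. With edgeR 0 of 3 passed in endothelium and 0 of 3 in podocytes, 0 of 3 had an unadjusted p under 0.05 in either, and DESeq2 also called 0 of 3 in each. The background was as sparse, with 0.00607% of all genes called in endothelium and 0.00607% in podocytes (1 gene each time, Emcn itself), and 5.49% and 4.43% at an unadjusted p under 0.05. The values below therefore describe sizes and intervals.

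Icam2, the ligand that resting endothelium carries, averaged 422 ± 3.31 CPM in wild-type endothelium (SD, n = 2) and 470 ± 21.5 CPM in knockout endothelium (SD, n = 2). Both knockout libraries lay above both wild-type libraries, as was the case in that direction for 24.8% of all genes. The log2 fold change was 0.16 (SE 0.23, edgeR adjusted p 0.836), and its 95% interval ran from 0.778-fold to 1.59-fold. Of 13 endothelial markers, 11 had positive and 2 negative fold changes in this comparison, with a median of 0.22 against 0.0049 over all genes. Of these 13, edgeR and DESeq2 called 0, and 0 had an unadjusted p under 0.05. Their part in the value of Icam2 was not tested. In podocytes Icam2 had overlapping libraries and a log2 fold change of −0.09 (SE 0.24, edgeR adjusted p 0.993), with an interval of 0.650-fold to 1.36-fold.

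Icam1, the inducible ligand of the β2 integrins, averaged 329 ± 61.0 CPM in wild-type endothelium (SD, n = 2) and 252 ± 85.6 CPM in knockout endothelium (SD, n = 2). The groups overlapped, since replicate 2 was higher in knockout (312 against 286 CPM) and replicate 3 lower (191 against 372 CPM). The log2 fold change was −0.39 (SE 0.29, edgeR adjusted p 0.727), with an interval of 0.491-fold to 1.19-fold. It was −0.08 without replicate 3 of knockout endothelium and −0.79 without replicate 2 of that group, and −0.012 with library-size scaling. Wild-type podocytes held 191 ± 27.5 CPM (SD, n = 2) and knockout podocytes 191 ± 37.0 CPM (SD, n = 2). In podocytes the log2 difference was −0.0011 (SE 0.29, edgeR adjusted p 1), with an interval of 0.642-fold to 1.56-fold.

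Vcam1, the ligand of VLA-4, averaged 133 ± 10.9 CPM in wild-type endothelium (SD, n = 2) and 124 ± 67.0 CPM in knockout endothelium (SD, n = 2). The wild-type libraries lay between the 2 knockout libraries. The log2 fold change was −0.10 (SE 0.46, edgeR adjusted p 0.954), with an interval of 0.458-fold to 1.91-fold. It turned to 0.36 without replicate 3 of knockout endothelium. Wild-type podocytes held 95.5 ± 51.4 CPM (SD, n = 2) and knockout podocytes 105 ± 51.7 CPM (SD, n = 2), a log2 fold change of 0.13 (SE 0.46, edgeR adjusted p 0.993) with an interval of 0.538-fold to 2.24-fold.

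Whether knockout moved the members differently in endothelium and podocytes was tested as an interaction. This term was −0.38 for Icam1 (SE 0.41, 95% interval −1.29 to 0.52), 0.25 for Icam2 (SE 0.33, 95% interval −0.50 to 0.99) and −0.23 for Vcam1 (SE 0.66, 95% interval −1.69 to 1.23) on the log2 scale, taken as endothelium minus podocytes. The term for Icam1 was −0.79 without replicate 2 of knockout endothelium and −0.08 without replicate 3 of that group. With edgeR 0 of 3 passed (adjusted p 1 for each), 0 of 3 had an unadjusted p under 0.05 and DESeq2 called 0 of 3, beside 0% of all genes called and 2.6% at an unadjusted p under 0.05.

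**Figure D3:**
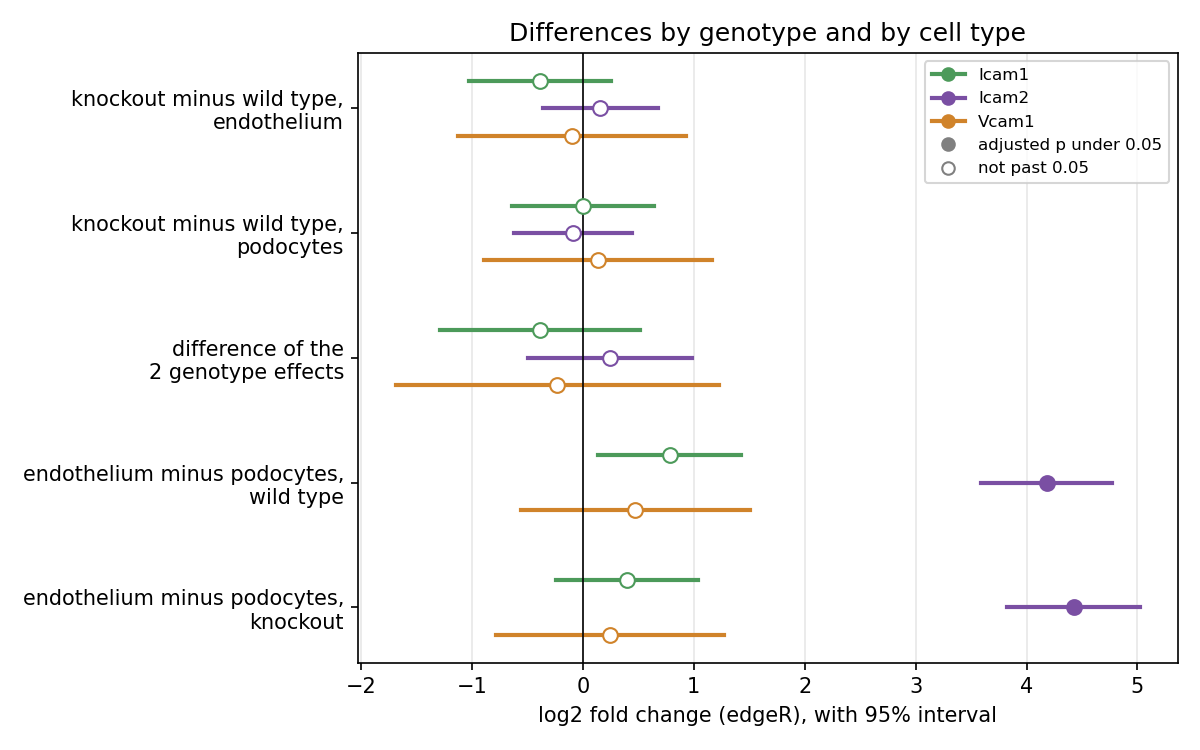
Log2 fold changes from edgeR with their 95% intervals for the 3 genes in 5 comparisons. Filled points passed an adjusted p of 0.05 and open points did not. Only the 2 cell type comparisons of Icam2, at 4.18 and 4.43, are filled, and each interval of a genotype comparison crosses 0.

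Spread within groups. The members differed in how well the 2 libraries of a group matched. Icam2 libraries of 1 group differed by a factor of 1.01 in wild-type endothelium, 1.07 in knockout endothelium, 1.45 in wild-type podocytes and 1.11 in knockout podocytes. In all 4 groups replicate 2 held more Vcam1 than replicate 3, by a factor of 1.12 in wild-type endothelium, 2.24 in knockout endothelium, 2.23 in wild-type podocytes and 2.07 in knockout podocytes. Of all genes tested, 96.9%, 95.1% and 90.4% had a smaller difference between the replicates in those last 3 groups. Icam1 was higher in replicate 2 in 3 of the groups, by 1.63, 1.23 and 1.32, and higher in replicate 3 of wild-type endothelium, by 1.30.

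Other measures moved with these replicates. Plvap, a diaphragm protein of fenestrated capillaries that is scarce in healthy glomerular endothelium, was chosen after its values were seen. It stood at 368 and 215 CPM in wild-type endothelium and at 1070.03 and 68.6 CPM in the knockout libraries, the same order as Vcam1 and Icam1 in knockout. Ehd3, a marker of glomerular endothelium, stood at 3223 and 2814 CPM in wild-type and 2917 and 3145 CPM in knockout endothelium. The summed level of 6 tubule markers ran from 2776 CPM in replicate 2 of knockout endothelium to 13268 CPM in replicate 3 of wild-type endothelium, the library with the highest Icam1. Of the 6 genes, Umod (9552 CPM) and Aqp2 (2142 CPM) were highest in that library, whereas Aqp1 (1084 CPM), Cdh16 (1448 CPM), Lrp2 (183 CPM) and Cubn (46.3 CPM) were highest in replicate 2 of knockout podocytes. In each group replicate 3 had the larger mitochondrial share of counts, the reverse of Vcam1, at 13.3% and 26.2% in wild-type endothelium and 10.1% and 19.6% in knockout endothelium. In podocytes it was 12.2% and 16.9% in wild type and 12.9% and 22.2% in knockout. Among the podocyte libraries, 8 markers of parietal epithelium, where Vcam1 is known to be made, summed to 1445 and 1305 CPM in wild type and 2143 and 1252 CPM in knockout, higher in replicate 2 as Vcam1 was. In endothelium the same sum went the other way, at 1184 and 1433 CPM in wild type and 1121 and 1428 CPM in knockout. Most of the endothelial sum was Cd9 and Cd24a (603 and 502 CPM in replicate 3 of wild type). Pax2, Pax8 and Prom1 were also higher in replicate 3 of wild-type endothelium, and Pax2, Ncam1 and Prom1 in replicate 3 of knockout endothelium. In wild-type podocytes Pax8, Prom1 and Cd24a were higher in replicate 3, as was Cd9 in knockout podocytes. Cldn1 and Dkk3, also chosen after their values were seen, were higher in replicate 2 in all 4 groups. The 8 complete mural markers, of pericytes and mesangium, summed to 987 and 953 CPM in wild-type and 1307 and 514 CPM in knockout podocytes. In endothelium they summed to 680 and 446 CPM in wild type and 551 and 326 CPM in knockout, so the sum was higher in replicate 2 in all 4 groups, as Vcam1 was. Single mural genes differed, since Itga8 (482 and 246 CPM in wild-type endothelium) and Des were higher in replicate 2 in all 4 groups, whereas Ren1 (1.81 and 104 CPM in wild-type podocytes) and Rgs5 were higher in replicate 3 in both wild-type groups. The part of these cells and shares in the members' values was not tested.

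The sorted populations were checked against their markers. In wild type, 12 of 13 endothelial markers were higher in endothelium and 1, Cldn5, was lower, while 8 of the 8 podocyte markers on complete lines were lower in endothelium, against 4.26% of all genes higher and 4.73% lower. In knockout 12 of 13 endothelial markers were higher, 0 were lower and Cldn5 did not pass, and 8 of 8 podocyte markers were lower. Emcn stood at 1971.5 and 1828 CPM in wild-type and 173 and 179 CPM in knockout endothelium, and at 74.1 and 35.9 against 5.59 and 4.94 CPM in podocytes, in the direction of the labels. A pair of fibroblast markers summed to between 5.64 and 33.3 CPM. Library totals on complete lines ran from 10478956 to 17386042 counts, and the lowest count of a member in any library was 262.

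Other ligands of the vessel wall. Of 14 adhesion ligands listed, members included, 10 had complete lines and were tested. Lines of the selectins Sele and Selp were incomplete, so those genes were not analysed here. Between wild-type endothelium and podocytes 4 were higher in endothelium, 2 were lower and 4 did not pass (over all genes 4.26% were called higher and 4.73% lower), and the list's median log2 fold change was 0.63 against −0.01 over all genes. Cd34, a sialomucin that can serve as a selectin ligand, had a log2 fold change of 2.87 (SE 0.32, edgeR adjusted p 0.000245). Alcam, the ligand of CD6 on T cells, was lower in endothelium, with a log2 fold change of −2.86 (SE 0.39, edgeR adjusted p 0.000954), and so was Podxl, a sialomucin that covers podocytes, with −2.58 (SE 0.35, edgeR adjusted p 0.000842). Cx3cl1, the membrane-bound chemokine fractalkine, had a log2 fold change of 1.07 (SE 0.28, edgeR adjusted p 0.0406).

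By genotype, edgeR called 0 of these 10 ligands in endothelium and 0 in podocytes, with 0 and 1 at an unadjusted p under 0.05 (against 5.49% and 4.43% of all genes), and DESeq2 called 0 in each, with no adjusted p for 2 of them in endothelium. The median log2 fold change was 0.05 in endothelium and −0.05 in podocytes, against 0.0049 and 0.02 over all genes. The 1 gene at an unadjusted p under 0.05 was Alcam in podocytes. It stood at 423 and 329 CPM in wild-type and 181 and 210 CPM in knockout podocytes, without overlap, a log2 fold change of −0.94 (SE 0.37, edgeR adjusted p 0.978). In that direction 16% of all genes had groups that did not overlap. Podocyte markers moved the same way: 8 of the 8 tested had negative fold changes in knockout podocytes, with a median of −0.59, and their sum was 15688 and 9840 CPM in wild-type and 7685 and 8468 CPM in knockout podocytes. Of these 8, edgeR and DESeq2 called 0 and 1 had an unadjusted p under 0.05 (against 4.43% of all genes), and their part in the value of Alcam was not tested.

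Transmigration genes. Of 10 genes of the wall through which arrested leukocytes pass, 8 were tested. Between the wild-type cell types 5 were higher in endothelium, 0 were lower and 3 did not pass (4.26% of all genes were higher and 4.73% lower), with a median log2 fold change of 2.64. Pecam1, Jam2, Cdh5 and Esam, adhesion proteins of endothelial junctions, were higher by 4.55, 3.58, 3.51 and 3.24 (edgeR adjusted p at most 0.000163). The junction protein F11r (0.76, edgeR adjusted p 0.114) and Cd99l2 (−0.66, edgeR adjusted p 0.124) did not pass. By genotype edgeR and DESeq2 called 0 of 8 in either cell type, and 0 had an unadjusted p under 0.05.

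Leukocyte counter-receptors. The leukocyte-specific chains of the integrins that bind ICAM molecules were read at about 10 CPM or less. Itgal, the α chain of LFA-1, stood at 4.41 and 4.05 CPM in wild-type and 8.74 and 10.1 CPM in knockout endothelium. Itgam, the α chain of Mac-1, stood at 4.33 and 2.60 CPM in wild-type and 5.71 and 7.39 CPM in knockout endothelium. Both chains lay higher in the knockout endothelial libraries, without overlap, which in that direction was so for 24.8% of all genes. Neither passed, with log2 fold changes of 1.15 (SE 0.49, edgeR adjusted p 0.716) and 0.92 (SE 0.60, edgeR adjusted p 0.718).

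Their common β2 chain, Itgb2, did not lie higher, at 4.41 and 5.79 CPM in wild-type and 4.58 and 3.70 CPM in knockout endothelium. Itga4, the α chain of VLA-4, stood at 25.9 and 13.3 CPM in wild-type and 17.3 and 13.1 CPM in knockout endothelium. Its partner Itgb1, the β1 chain that many cell types make, stood at 1453 and 986 CPM in wild-type endothelium and 2535 and 1881 CPM in wild-type podocytes. Of the 10 counter-receptors tested, edgeR called 0 by genotype in endothelium (2 at an unadjusted p under 0.05, against 5.49% of all genes) and 0 in podocytes (0 at an unadjusted p under 0.05, against 4.43%). DESeq2 called 0 in each, with no adjusted p for 4 of the 10 in endothelium. The 2 at an unadjusted p under 0.05 were Itgal and Cd44, a hyaluronan receptor (0.99, SE 0.41, edgeR adjusted p 0.716). Between the wild-type cell types 1 of 10 was higher in endothelium and 0 were lower, against 4.26% and 4.73% of all genes. In either direction 1 of 10 is near the 8.99% of all genes called. The gene called was Itga9 (1.42, SE 0.36, edgeR adjusted p 0.0307), while Itgb1 (−0.86, edgeR adjusted p 0.146) and Itgb7 (1.08, edgeR adjusted p 0.243) did not pass. The 9 complete immune markers summed to between 67.4 and 155 CPM in the 8 libraries, and none was at 0 in a group. In endothelium they summed to 99.7 and 94.5 CPM in wild type and 88.5 and 67.4 CPM in knockout, the other way from Itgal and Itgam. Of the 8 tested, 5 had positive and 3 negative fold changes in knockout endothelium, with 0 called by edgeR. In podocyte libraries most of the immune sum was Csf1r, chosen after its values were seen. It stood at 74.4 and 67.9 CPM in wild-type and 107 and 76.4 CPM in knockout podocytes, against 4.99 to 12.3 CPM in endothelium.

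**Figure D4:**
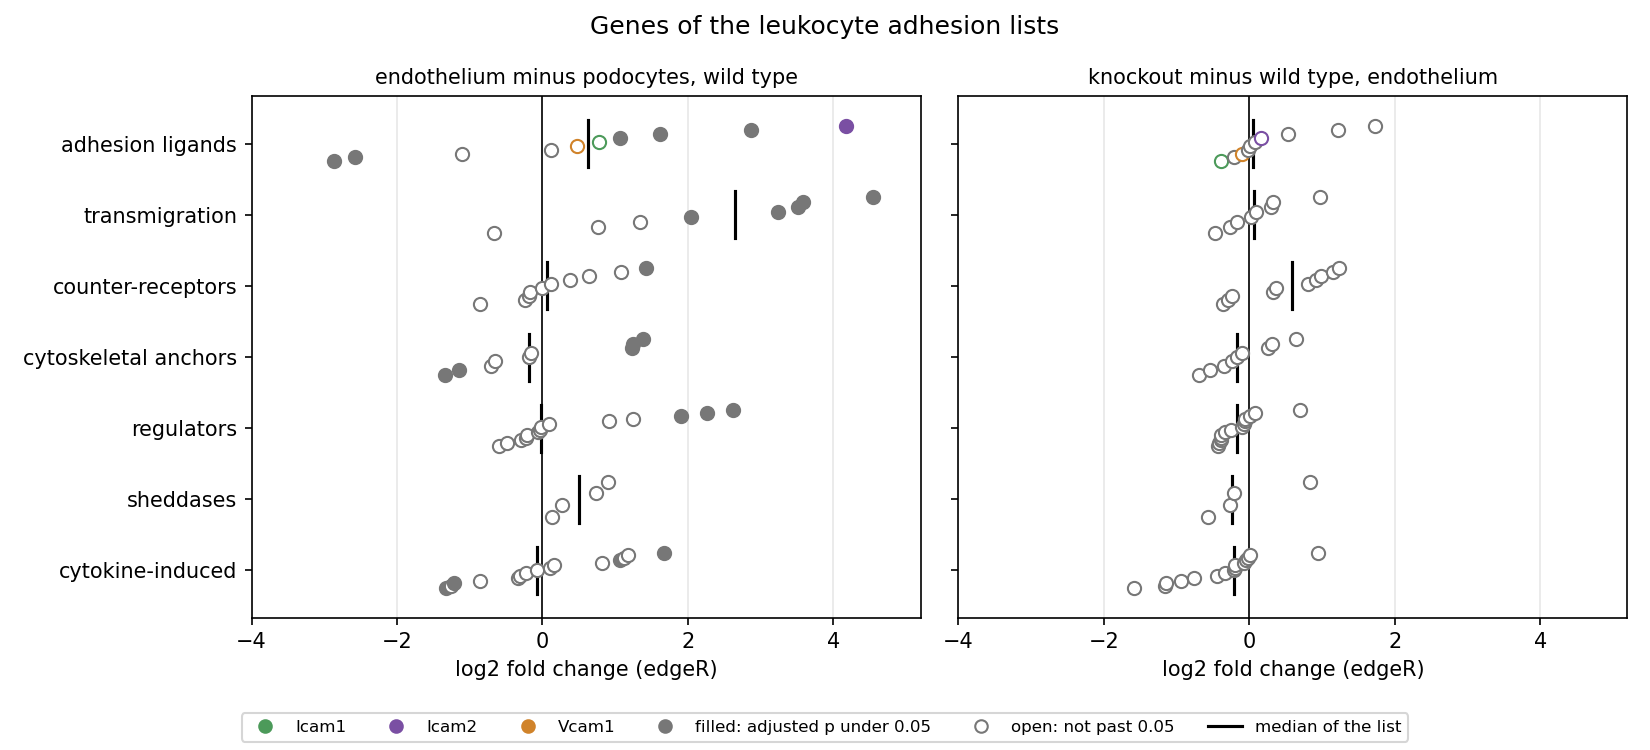
Log2 fold changes from edgeR of each tested gene in the 7 adhesion lists, for endothelium minus podocytes in wild type (left) and knockout minus wild type in endothelium (right). Filled points passed an adjusted p of 0.05, bars are list medians and the members are coloured. Calls stand in the left panel only, where Icam2 at 4.18 is the highest of the adhesion ligands.

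Anchors and sheddases. The tails of ICAM and VCAM molecules are tied to the actin cytoskeleton by ezrin, radixin and moesin, and ICAM-1 signals through RhoG and its exchange factor SGEF, encoded by Arhgef26. Over all genes 4.26% were called higher in wild-type endothelium than in podocytes and 4.73% lower. Of 9 anchor genes tested, 3 were higher, namely Msn (1.38), Rhog (1.25) and Rdx (1.23), with edgeR adjusted p-values of 0.0452, 0.0253 and 0.00495. Ezr (−1.34, edgeR adjusted p 0.0161) and Actn4 (−1.14, edgeR adjusted p 0.024) were lower in endothelium. Nherf1 (−0.65, edgeR adjusted p 0.103) did not pass.

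Arhgef26 stood at 64.1 and 55.4 CPM in wild-type and 26.5 and 32.1 CPM in knockout podocytes, without overlap, as 16% of all genes did in that direction. Its log2 fold change in podocytes was −1.03 (SE 0.23, edgeR adjusted p 0.978, unadjusted p 0.00124), and in endothelium 0.26 (SE 0.23, edgeR adjusted p 0.752). The podocyte markers lay lower in the same libraries (median −0.59, none called), and their part in this value was not tested either. By genotype edgeR called 0 of the 9 anchors in endothelium (2 at an unadjusted p under 0.05, against 5.49% of all genes) and 0 in podocytes (1 at an unadjusted p under 0.05, against 4.43%), and DESeq2 called 0 in each. The 2 in endothelium were Ezr, at 311 and 424 CPM in wild type and 171 and 282 CPM in knockout (−0.70, edgeR adjusted p 0.716), and Nherf1, at 77.2 and 100.4 against 58.1 and 64.2 CPM (−0.54, edgeR adjusted p 0.716). In knockout endothelium 7 of the 8 podocyte markers had negative and 1 a positive fold change, with a median of −0.32 and 0 called. Their part in the values of Ezr and Nherf1 was not tested. Of 4 sheddases tested, edgeR called 0 between the wild-type cell types, with 1 at an unadjusted p under 0.05 against 19.6% of all genes, Adam10 (0.91, edgeR adjusted p 0.108). Adam17, the protease that releases VCAM-1 from the cell surface, was at 0.13 (edgeR adjusted p 0.852). By genotype edgeR and DESeq2 called 0 of the 4 in either cell type (with no DESeq2 adjusted p for 1 in endothelium), and 0 had an unadjusted p under 0.05.

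Regulators and cytokine-induced genes. Lines of Tnfrsf1a, Il1r1, Nfkb1 and Nfkbia were incomplete, so the receptors for TNF and IL-1 and part of the NF-κB system were not analysed here. Of 14 regulators tested, 3 were higher in wild-type endothelium than in podocytes and 0 were lower, against 4.26% and 4.73% of all genes. They were the endothelial transcription factors Erg (2.63, edgeR adjusted p 0.0377), Klf4 (2.27, edgeR adjusted p 0.000301) and Gata2 (1.91, edgeR adjusted p 0.0189). Rela, the NF-κB subunit p65, differed by −0.22 (SE 0.34, edgeR adjusted p 0.822) and Klf2 by 0.92 (SE 0.53, edgeR adjusted p 0.412). Ikbkg, the regulatory subunit of the kinase that activates NF-κB, did not pass either (−0.60, edgeR adjusted p 0.145).

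By genotype edgeR and DESeq2 called 0 of the 14 regulators in either cell type (with no DESeq2 adjusted p for 1 in endothelium), and 0 had an unadjusted p under 0.05. Rela differed by −0.07 (SE 0.34) in endothelium and 0.02 (SE 0.34) in podocytes, and Klf2 by −0.39 (SE 0.53) and −0.70 (SE 0.53). Klf4 differed by −0.39 (SE 0.25) and 0.43 (SE 0.25), and Erg by −0.06 (SE 0.62) and 0.16 (SE 0.69). For each of these, edgeR gave an adjusted p of 0.718 or more.

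The 15 tested genes of the cytokine-induced list include chemokines and NF-κB targets that vessels switch on together with ICAM-1 and VCAM-1. Between the wild-type cell types 2 were higher in endothelium and 2 were lower, against 4.26% and 4.73% of all genes. Csf1 (1.67, edgeR adjusted p 0.00185) and Cx3cl1 were higher in endothelium, while Cxcl1 (−1.33, edgeR adjusted p 0.0274) and Cxcl10 (−1.22, edgeR adjusted p 0.0222) were lower. Icosl (1.12, edgeR adjusted p 0.0617) and Traf1 (0.82, edgeR adjusted p 0.187) did not pass with edgeR. DESeq2 called Icosl as well, with 3 of the list higher in endothelium and 2 lower.

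In the genotype comparison of endothelium, edgeR called 0 of the 15, with 2 at an unadjusted p under 0.05 (against 5.49% of all genes), and DESeq2 called 0, with no adjusted p for 4. Those 2 genes were the chemokines Cxcl1 and Cxcl10. Cxcl1 stood at 15.2 and 24.4 CPM in wild-type and 8.74 and 8.94 CPM in knockout endothelium. Its log2 fold change was −1.16 (SE 0.33, edgeR adjusted p 0.716). Cxcl10 stood at 23.1 and 38.9 CPM in wild-type and 15.6 and 16.7 CPM in knockout endothelium, and its log2 difference was −0.94 (SE 0.29, edgeR adjusted p 0.716). Both had groups that did not overlap, which in that direction was so for 19.7% of all genes.

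The median of the list in endothelium was −0.22 against 0.0049 over all genes, with 13 of 15 fold changes below 0. With library-size scaling, which moved the median of all genes to 0.33, 6 of 15 were below 0 and 12 of 15 were below that median. In podocytes 6 of 15 were below 0 and edgeR and DESeq2 called 0 of 15, with 0 at an unadjusted p under 0.05. The 20 tested genes of the dissociation response, made of early-response and heat shock genes induced when tissue is digested, were below 0 in knockout endothelium in 20 of 20 cases, with 0 called by edgeR (9 at an unadjusted p under 0.05, against 5.49% of all genes) and 0 by DESeq2. Their summed level was 45130 and 52551 CPM in wild-type against 28397 and 36632 CPM in knockout endothelium. With library-size scaling 19 of 20 were below 0. In podocytes 13 of 20 were below 0, with 0 called by edgeR or DESeq2 and 0 at an unadjusted p under 0.05. The summed level there was 49057 and 40725 CPM in wild type and 39753 and 34378 CPM in knockout, so it lay lower in knockout in both cell types. The part of that response in the values of Icam1 and of the cytokine-induced genes was not tested.

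Genes most like each member. Over the 8 libraries the log2 CPM of each member was compared with 10079 other genes that had a mean of at least 5 CPM. All genes share the same libraries, scaling and 4 groups, so high correlations come easily and no p is given. Icam2 was most like Abi3, Hyal2 and Amotl1, with Pearson correlations of 0.999, 0.999 and 0.998. Abi3 stood at 98.5 and 102 CPM in wild-type and 118 and 113 CPM in knockout endothelium, against 6.10 to 9.78 CPM in the podocyte libraries, high in endothelium and low in podocytes as Icam2 was.

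Icam1 was most like Smc6 (0.973), H2az1 (0.971) and Klhdc3 (0.961), and Vcam1 was most like Zfp101 (0.949), Gmpr2 (0.930) and Ypel3 (0.926). Smc6 ran from 65.9 to 85.8 CPM over the 8 libraries, highest, as Icam1 was, in replicate 3 of wild-type endothelium. Zfp101 ran from 4.35 to 11.3 CPM and was higher in replicate 2 in each group, as Vcam1 was. Between members the correlation was 0.728 for Icam1 with Icam2, 0.762 for Icam1 with Vcam1 and 0.418 for Icam2 with Vcam1.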

How the data were processed

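Polyadenylated RNA of 8 sorted-cell libraries was sequenced after a TruSeq preparation, per the labels. The authors deposited raw read counts per Entrez gene, and each column carries the name of a BAM file, per the file headers. The build mm10 and the tool DESeq2 are named in the submitters' processing notes. Aligner, counter, annotation and strand use were not given in the sources used here. Of 22533 gene lines, 5207 (23.1%) held fewer than 8 counts, each with a comma in its gene description, and were not analysed here.

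edgeR 4.0.16 (R 4.3.3, limma 3.58.1) was run on the counts with filterByExpr (16477 genes kept), TMM scaling and 1 mean per group over all 8 libraries. Quasi-likelihood p-values were adjusted by Benjamini-Hochberg over every gene kept, and 0.05 was the threshold. The standard error is the log2 fold change over the square root of F. Log2 CPM used a prior count of 2. Code was tested on simulated data. Transcript lengths came from GENCODE M21 (13280 genes matched), the promoter from RefSeq. Alternatives were DESeq2 1.42.0, other scalings and filters, the replicate block, fewer libraries and, chosen after seeing the data, a block with crossed numbers.

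Members and lists were chosen with earlier results of these data known. Genes named were the members, Emcn, a fixed set of counter-receptors and regulators, and, per list, genes past the threshold by genotype, up to 4 of the largest called cell type differences and up to 2 expressed genes nearest to it. The 3 genes most correlated with each member were also named. A regulator that this rule would name is not reported here. The share of each list on complete lines was 58.3% for the regulators, between 71.4% and 80.0% for the other adhesion lists, and 100% for endothelial and parietal markers. It was lower for podocyte (61.5%), tubule (60.0%), immune (50.0%) and fibroblast (40.0%) markers.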

Additional observations from a re-analysis of the deposited data

How the results depend on the processing

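Over 180 refits of the 15 member results, each under 1 alternative, 160 kept direction and side of the threshold, 1 gained a call and 19 changed sign without a call. The call gained was Icam1 between the wild-type cell types, at 0.89 when only the 4 libraries compared were fitted. In knockout against wild-type podocytes, Icam1 turned to 0.12 with library-size scaling, 0.080 with a mean of at least 5 CPM and 0.0072 with only the 4 libraries compared, and Icam2 to 0.028 with library-size scaling. In endothelium Vcam1 turned to 0.26 with library-size scaling and 0.043 with a mean of at least 5 CPM. Library-size scaling put the median of all genes at 0.33 in endothelium and 0.13 in podocytes, and the values that changed sign under that scaling lie below these medians. In endothelium Icam1 went from −0.39 to −0.012 with library-size scaling and −0.24 with a mean of at least 5 CPM, and Icam2 from 0.16 to 0.49 and 0.29. The cause of the other changes was not tested. A fit without 1 library leaves 1 in an arm, which is assumed to vary like the other groups. Over such fits the genotype effect ran from −0.80 to 0.36 for Vcam1 in endothelium, and in podocytes from −0.22 to 0.18 for Icam1, −0.33 to 0.22 for Icam2 and −0.49 to 0.86 for Vcam1. The interaction ran from −0.047 to 0.48 for Icam2 and −0.94 to 0.38 for Vcam1, and the knockout cell type difference from −0.0031 to 0.70 for Icam1 and −0.46 to 0.85 for Vcam1. Genes called by genotype numbered 0 with library-size scaling and with a mean of at least 5 CPM in either cell type, 10 in endothelium and 12 in podocytes with DESeq2, and 0 in podocytes with only the 4 libraries compared. Without 1 library they ran from 0 to 0 in endothelium and 0 to 1 in podocytes, and cell type calls from 769 to 1085 in wild type and 960 to 1809 in knockout. The labels do not say that replicate numbers pair libraries. Deviations of same-numbered libraries correlated by 0.188 between the endothelium groups and 0.157 between the podocyte groups, by −0.129 between the wild-type cell types and 0.111 between the knockout ones. With the replicate block no member call changed. In wild type and knockout, Icam2 then differed between cell types by 4.20 and 4.43, and Icam1 by 0.81 (edgeR adjusted p 0.0712) and 0.38. Vcam1 differed by 0.62 (SE 0.26, edgeR adjusted p 0.187) and 0.23 (SE 0.25), and by genotype in endothelium by −0.24 (SE 0.26, edgeR adjusted p 0.758). The block called 1831 and 2242 genes between cell types. With the podocyte numbers swapped, 1352 and 1578 genes were called, and Vcam1 differed by 0.52 (SE 0.51) in wild type. The lowest count of a member in any library was 262.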
